A study of Solanum lycopersicum with 4 samples.

Results

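A group of 341 tomato genes, out of 35479 annotated on chromosomes 1 to 12 and 35821 in the whole table, had reads in *ddm1* leaves and none in WT leaves. They were chosen by their raw counts: 0 in both WT libraries and 30 or more in both *ddm1* libraries. The *ddm1* plants were the *Slddm1a/Slddm1b* double mutant, in which both tomato DDM1 genes are mutated, and the WT plants were cultivar M82, whose genome assembly the reads were mapped to. RNA came from leaf number 4 of untreated plants aged 1 month, and 2 poly(A) RNA-seq libraries were made per genotype. The sources used here do not say whether a library came from 1 plant or from pooled plants, nor which generation of the mutant was used.

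DDM1 is a chromatin remodeler that lets DNA methyltransferases reach DNA wrapped in nucleosomes. In *Arabidopsis* and in crops its loss removes much of the methylation of transposable elements (TEs), above all in the gene-poor heterochromatin around the centromeres. In tomato this heterochromatin fills most of the middle of each chromosome, while genes crowd towards the ends. For the tomato double mutant, TEs of gene-poor regions are reported to lose methylation at CG and CHG but to gain it at CHH, where H is A, C or T. Genes that are silent in a tissue can lie in such heterochromatin or can be held silent by Polycomb, the complex that writes H3K27me3, and annotated gene models in TE-rich DNA can be parts of TEs themselves.

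The libraries held 6610591 and 6887057 counts for *ddm1*, against 5827940 and 5462981 counts for WT. The replicates were independent biological replicates, and within each genotype they number 2, so a single value cannot reach an exact permutation p below 0.333. The plastid gene rbcL, which encodes the large subunit of Rubisco and marks green tissue, had 456 and 554 counts in *ddm1*, against 989 and 834 counts in WT, in libraries whose poly(A) selection captures plastid RNA poorly. Of the 35479 chromosome identifiers, 0 could be paired with a gene name, so the members are given by identifier and position on the M82 assembly, and no function is assigned to any of them. For the same reason the DDM1 genes were not looked up.

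The 341 genes took a small share of the *ddm1* counts. These are counts after duplicates were removed, which may cost the highest genes some counts, so the share is not one of all RNA. Together they held 39689 counts in *ddm1* replicate 1 and 35815 in *ddm1* replicate 2, which is 0.6004% and 0.520% of these libraries, against 0 counts in both WT libraries. A count of 0 allows up to 3 counts per WT library, that is 0.521 and 0.564 CPM (counts per 1000000 counts of a library, after TMM scaling). This limit covers counting error only. In leaf RNA, fewer cells that transcribe a gene and less RNA per cell cannot be told apart. The median member had 80 and 69 counts in the *ddm1* libraries, or 11.98 and 9.72 CPM, and the mean over both libraries ranged from 4.36 to 127 CPM with a median of 11.1 CPM. The other 17572 genes with 30 or more counts in both *ddm1* libraries had a median of 42.9 CPM. Set against the limit of 3 counts in each WT library, the members were at least 8.03-fold to at least 235-fold higher in *ddm1*, with a median bound of 20.5-fold. These values are the ones the genes were chosen by, and no test is attached to them. Shares of the members set beside those of other genes, here and in what follows, are likewise descriptions without a test.

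**Figure D1:**
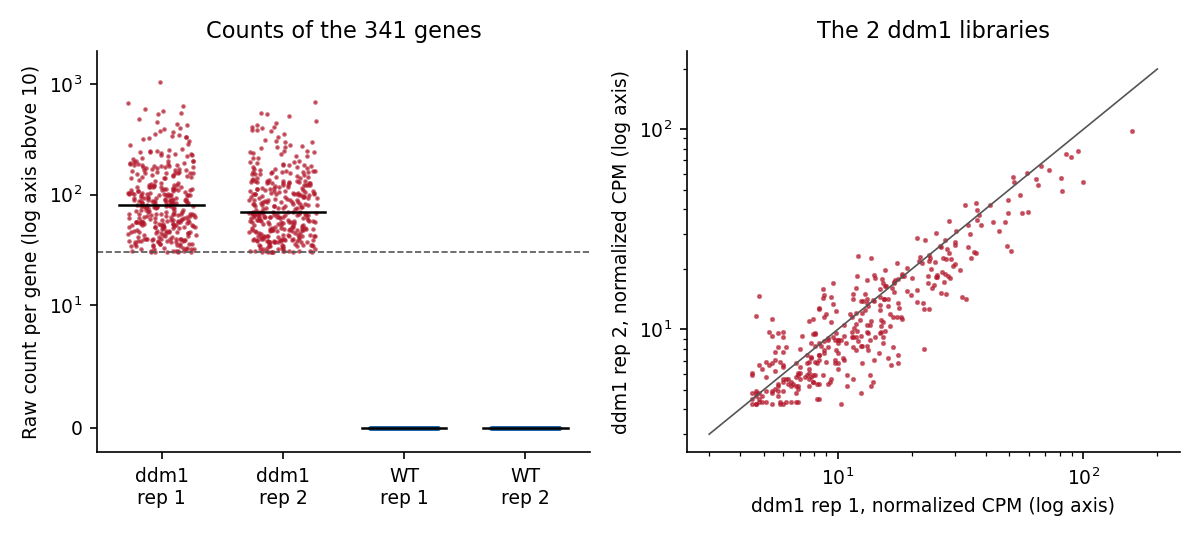
Left, raw count of each of the 341 genes (points, log axis above 10) in the 2 *ddm1* and the 2 WT libraries, with the median as a bar and the minimum of 30 counts as a dashed line. Right, normalized CPM of the same genes in *ddm1* replicate 1 against replicate 2 on log axes, with the line of equality; 239 of the 341 points lie on the replicate 1 side.

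Few members were strongly expressed. In both *ddm1* libraries 102 members had 100 or more counts, 16 had 300 or more and 4 had 500 or more. The 10 highest members held 14.2% of all member counts and the 100 highest 59.7%. Solyc02g021785.1, an 18522 bp gene on the plus strand of chromosome 2 (22769203 to 22787724), had 1051 and 692 counts in *ddm1*, against 0 and 0 in WT. It alone gave 2.31% of the member counts.

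Next came genes scattered over the genome. Solyc12g042485.1 (chromosome 12, 60828410 to 60831251) had 636 and 550 counts in *ddm1*, against 0 and 0 in WT. Solyc03g096305.1 (chromosome 3, 54450674 to 54455230) had 566 and 534 counts in *ddm1*, against 0 and 0 in WT. Solyc04g051787.1 (chromosome 4, 51930116 to 51934538) had 594 and 514 counts in *ddm1*, against 0 and 0 in WT. In these 3 the *ddm1* libraries lay closer together than in the first gene. Ranked by the CPM of the lower *ddm1* library, these 4, all with a gene model of version 1, led the members, and the next 4 were of version 2 or 3. Solyc09g089780.3 had 449 and 463 counts in *ddm1* and lay in gene-dense DNA, with 127 annotated genes within 500 kb. Solyc05g007610.2 had 540 and 407 counts in *ddm1* and 114 such neighbours. Solyc03g044440.2, with 484 and 443 counts in *ddm1*, had only 20 of them. High level in *ddm1* was thus found in gene-dense and gene-poor surroundings alike, and WT was at 0 for each of these genes.

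Per unit of length the order changed, where length is that of the counted interval with its introns. The most reads per kb, as the mean of the *ddm1* libraries, were in short genes. In part the rule sets this order, because a minimum of 30 counts means more reads per kb the shorter the gene. Duplicates had also been removed, which may lower the highest values most. The highest over all chromosome genes was 1237 reads per kb. Solyc02g014650.1, which is 210 bp long, had 721 reads per kb, Solyc02g014640.1, which is 198 bp long, had 697, and Solyc06g036250.2, which is 630 bp long, had 652. Solyc03g079970.1 had 450 reads per kb and Solyc10g055570.3 had 446. The median over the members was 37.1 reads per kb, against 74.4 for the other genes with 30 or more counts in both *ddm1* libraries. On both scales, CPM and reads per kb, the median member was therefore lower than the median gene passing the same minimum in *ddm1*.

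The members' lengths spanned 153 bp to 33750 bp. Their median length was 2308 bp, close to the 2151 bp of all chromosome genes. It lay below the 3962 bp of the other genes with 30 or more counts in both *ddm1* libraries and above the 636 bp of the 7583 genes at 0 in all 4 libraries. A minimum count favours long genes, which offer more sequence to read. Among the members 17 were 300 bp or shorter (4.99%, against 8.91% of all chromosome genes) and 5 were 20 kb or longer (1.47%, against 0.947%).

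The extremes show how the same count can come from very different genes. Solyc08g022025.1, the longest, covers 33750 bp of chromosome 8 (36456221 to 36489970) and had 174 and 186 counts in *ddm1*. Solyc07g049780.3, of 28251 bp, had 140 and 203 counts in *ddm1*, and Solyc07g041027.1, of 28150 bp, had 545 and 350. All 3 had 0 counts in both WT libraries. At the short end, Solyc04g050360.2, of 153 bp, had 31 and 30 counts in *ddm1*, and Solyc06g011340.1, of 156 bp, had 45 and 34, again against 0 and 0 in WT.

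By strand the members were balanced, with 177 of 341 on the plus strand (51.9%, against 50.2% of all chromosome genes). The share was 46.9% among the 196 members in gene-poor regions and 58.6% among the other 145. Of the members, 8 (2.35%) overlapped an annotated gene on the opposite strand, against 4.88% of all chromosome genes, and 2 of these 8 partners had any counts in WT. Counting was by strand. In one such pair, chosen after its values were seen, Solyc07g054670.4 had 63 and 103 counts in *ddm1*, against 0 and 0 in WT, while its partner Solyc07g054680.3 on the other strand, which shares 33 bp with it, had 120 and 79 counts in *ddm1*, against 84 and 82 in WT. On the same strand 4 members overlapped another gene, in each case another member, and a read in the shared bases was counted for both.

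Most members carried a first-version identifier. A nuclear tomato identifier ends in the version of its gene model, and in the original numbering successive genes were spaced by 10, so that numbers not ending in 0 mark models inserted later. Version 1 made up 206 of the 341 members (60.4%), against 32.1% of all chromosome genes and 12.5% of the other genes with 30 or more counts in both *ddm1* libraries. The members were close in this to the genes at 0 in all 4 libraries, of which 59.9% were version 1. Versions 3 and 4 took 20.8% and 3.81% of the members, against 33.1% and 16.0% of all chromosome genes. Of the 334 members with a Solyc number, 156 had one not ending in 0 (46.7%), against 13.3% of all chromosome genes with such a number. In this they went beyond the genes at 0 in all 4 libraries, at 27.8%. Numbers beginning with 15 were found in 29 members (8.68%, against 1.94%).

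**Figure D2:**
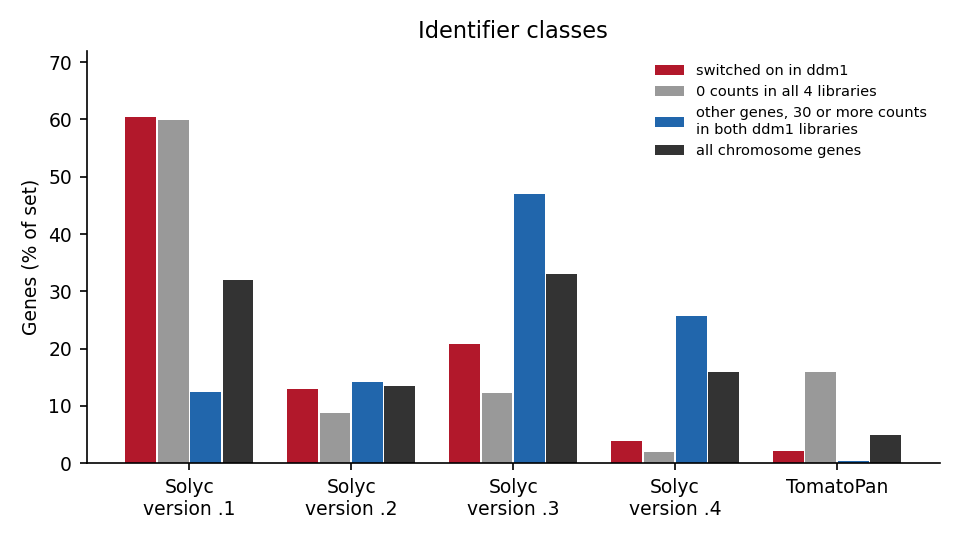
Share of genes in each identifier class (% of the set) for the 341 genes switched on in *ddm1*, the 7583 genes with 0 counts in all 4 libraries, the 17572 other genes with 30 or more counts in both *ddm1* libraries, and all 35479 chromosome genes. Version 1 holds 60.4% of the switched-on genes and 12.5% of the other genes with 30 or more counts in *ddm1*.

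Median levels lay close together across the versions. The median of the mean *ddm1* CPM was 10.9 for version 1, 13.7 for version 2, 11.6 for version 3 and 11.5 for version 4. The version classes did differ in where their members lay, with 68.0% of the version 1 members in gene-poor regions, against 38.6%, 42.3% and 30.8% for versions 2, 3 and 4. Counted over all chromosome genes of a class, there were 18.1 members per 1000 genes of version 1 and 2.29 per 1000 of version 4. The 7 members with a TomatoPan identifier were low, from 5.31 to 17.3 CPM in *ddm1*, and made up 2.05% of the members, against 4.97% of all chromosome genes and 15.9% of those at 0 in all 4 libraries. Of 124 chromosome genes with a copy or second suffix 0 were members, against 341 of all 35479 chromosome genes. At that rate 124 genes are too few to read the 0 as a trait of the members. In all 4 libraries 90 of the 124 were at 0.

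A few members carry the number of another chromosome. There were 6 with Solyc00g identifiers, the number once given to unplaced sequence. They were 1.80% of the members with a Solyc number, against 0.715% of all such genes and 2.60% of those at 0 in all 4 libraries. On the M82 assembly 4 of the 6 lie on chromosome 3 and 2 on chromosome 9. Their mean *ddm1* CPM ranged from 4.79 to 21.7, and Solyc00g500231.1 (chromosome 9, 5512636 to 5517852) was the highest with 143 and 156 counts in *ddm1*, against 0 and 0 in WT. Another 2 members, Solyc05g014058.1 and Solyc05g014056.1, lie on chromosome 12 in the M82 assembly.

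The members lay in gene-poor DNA more often than other genes. Genes were called gene-poor when at most 46 annotated genes had their midpoint within 500 kb, which takes the lowest 25% of genes and their ties. Of the members 196 of 341 were gene-poor (57.5%), against 25.4% of all chromosome genes, 12.8% of the other genes with 30 or more counts in both *ddm1* libraries and 48.9% of the genes at 0 in all 4 libraries. The median member had 32 annotated genes within 500 kb, against 106 for all chromosome genes. In distance along the chromosome the median member lay 20.04% of the gene-bearing span from the nearer end, against 9.99% for all chromosome genes. In the outer 10% on each side were 21.1% of the members, against 50.1% of all chromosome genes, and in the central part, 40% to 50% from the nearer end, 14.1%, against 6.31%. For the genes at 0 in all 4 libraries the median distance was 17.3%, with 31.8% in the outer 10% and 11.9% in the central part. With the lowest 10% of genes called gene-poor in place of 25%, the share of members was 27.3%, against 10.7% of all chromosome genes. The place of a gene was not used to choose the members.

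**Figure D3:**
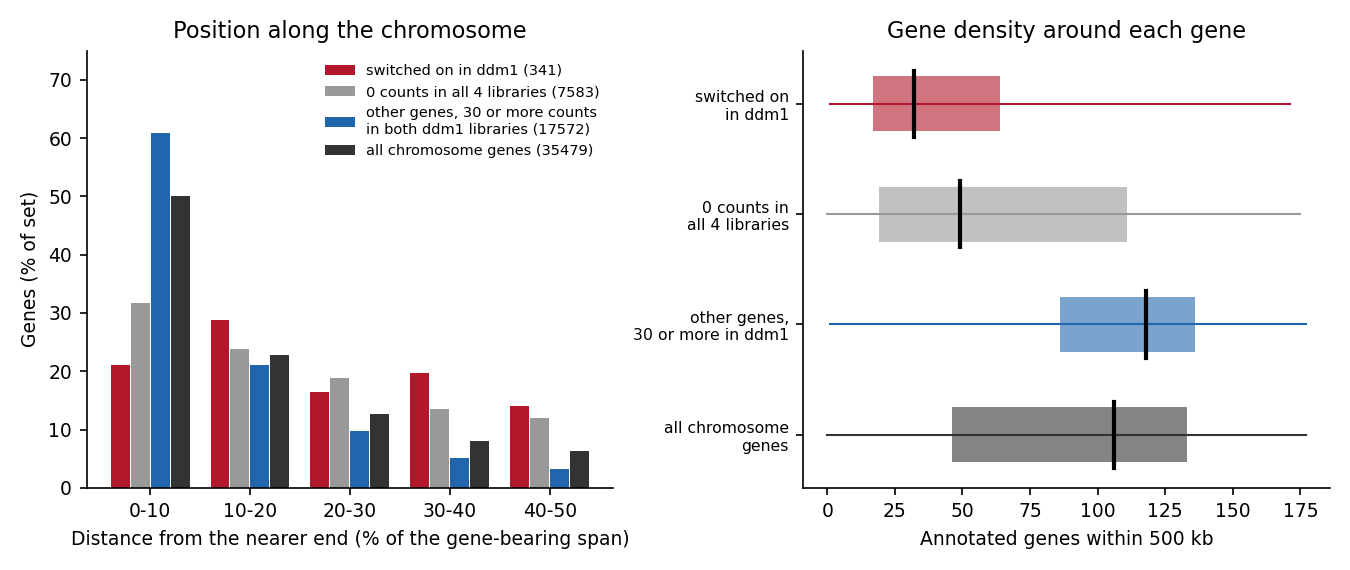
Left, share of genes (% of the set) by distance from the nearer end of the chromosome, in steps of 10% of the span from the first to the last annotated gene. Right, number of annotated genes within 500 kb of each gene, with the whole range as a line, the middle 50% as a box and the median as a black bar; the medians are 32 for the switched-on genes, 49 for genes at 0 in all 4 libraries, 118 for other genes with 30 or more counts in both *ddm1* libraries and 106 for all chromosome genes.

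Gene-poor and other members had close median levels. The median of the mean *ddm1* CPM was 11.1 in the 196 gene-poor members and 11.2 in the other 145. Median length was 2100 bp in the gene-poor members and 2637 bp in the others. The identifiers differed more, with version 1 in 71.4% of the gene-poor members and 45.5% of the others, and numbers not ending in 0 in 57.1% and 32.9%. The most isolated member had 1 annotated gene within 500 kb and the least isolated 171.

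Every chromosome had members. Their number ranged from 20 on chromosome 6 to 39 on chromosomes 1 and 3. Per 1000 annotated genes, chromosome 12 had most (13.1) and chromosome 2 fewest (6.22). On chromosome 2 gene-poor regions held 17 of 22 members (77.3%), while on chromosome 6 they held 8 of 20 and on chromosomes 9 and 3 they held 40.7% and 41.0%. In windows of 5 Mb, 131 of 167 held at least 1 member and 17 held 5 or more. The window from 50000001 to 55000000 of chromosome 3 had most, with 12 members among 283 genes (4.24%), followed by that from 60000001 to 65000000 of chromosome 12 with 11 among 290 (3.79%). By share the order differed. Among windows with 6 or more members, that from 15000001 to 20000000 of chromosome 2 was highest, with 6 among 75 genes (8%). Over all chromosomes 341 of 35479 genes were members. The gene-poor share of all genes was not counted by chromosome.

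Most members stood alone. The median distance to the nearest other member was 594 kb, 83 members had another within 100 kb and 50 within 10 kb. When members no more than 100 kb apart were joined, 258 stayed single, 24 pairs formed, and 11 clusters held 3 or 4 members, 35 in all. In annotated gene order 61 members (17.9%) were next to another member, against 1.74% of all other chromosome genes. In this order 15.3% of the gene-poor members were next to another member, against 356 of the 8798 non-members in gene-poor regions. For members elsewhere the share was 21.4%, against 255 of the 26340 non-members there. Among the 33 pairs of members adjacent in this order, 30 lay on the same strand (90.9%), against 55.2% of all adjacent gene pairs, and the median gap was 3123 bp, against 3897 bp. Neighbouring models on 1 strand can be pieces of 1 transcript, and the gene table alone does not show whether they are. For such pairs the number of members may overstate the number of transcription units by an amount that was not tested.

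The 2 largest clusters had 4 members each, all on the plus strand. That on chromosome 2 (17020472 to 17127285) holds short genes. Solyc02g014640.1 had 161 and 115 counts in *ddm1*, Solyc02g014650.1 had 160 and 143, Solyc02g014680.1 had 55 and 48, and Solyc02g014690.1 had 37 and 55, each against 0 and 0 in WT. The 2 genes between them, Solyc02g014660.1 and Solyc02g014670.2, had at most 6 counts in any library and none in WT. All 7 annotated genes in the 60 kb before the cluster were at 0 in all 4 libraries.

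The cluster on chromosome 3 (54042454 to 54119279) holds longer genes. Solyc03g096150.3 had 203 and 221 counts in *ddm1*, Solyc03g096100.2 had 109 and 74, Solyc03g096130.2 had 71 and 50, and Solyc03g096140.2 had 34 and 41, each against 0 and 0 in WT. The next gene, Solyc03g096160.3, missed the rule by a single read, with 289 and 226 counts in *ddm1*, against 1 and 0 in WT. The gene before the cluster, Solyc03g096090.4, had 133 and 133 counts in *ddm1*, against 166 and 174 in WT. Further out, and chosen with its values known, Solyc03g096070.3, 3 genes before the cluster, had 194 and 174 counts in *ddm1*, against 12 and 10 in WT (log2 fold change 3.74, edgeR adjusted p of 0.000279). Over the wider stretch from 54042454 to 54782757, picked after its values were seen, 9 of 40 annotated genes were members, 8 were at 0 in all 4 libraries, 8 more had counts in *ddm1* only, and 15 had counts in WT, of which 9 had over 10 in both WT libraries. The members there ranged from 34 to 566 counts in *ddm1*.

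**Figure D4:**
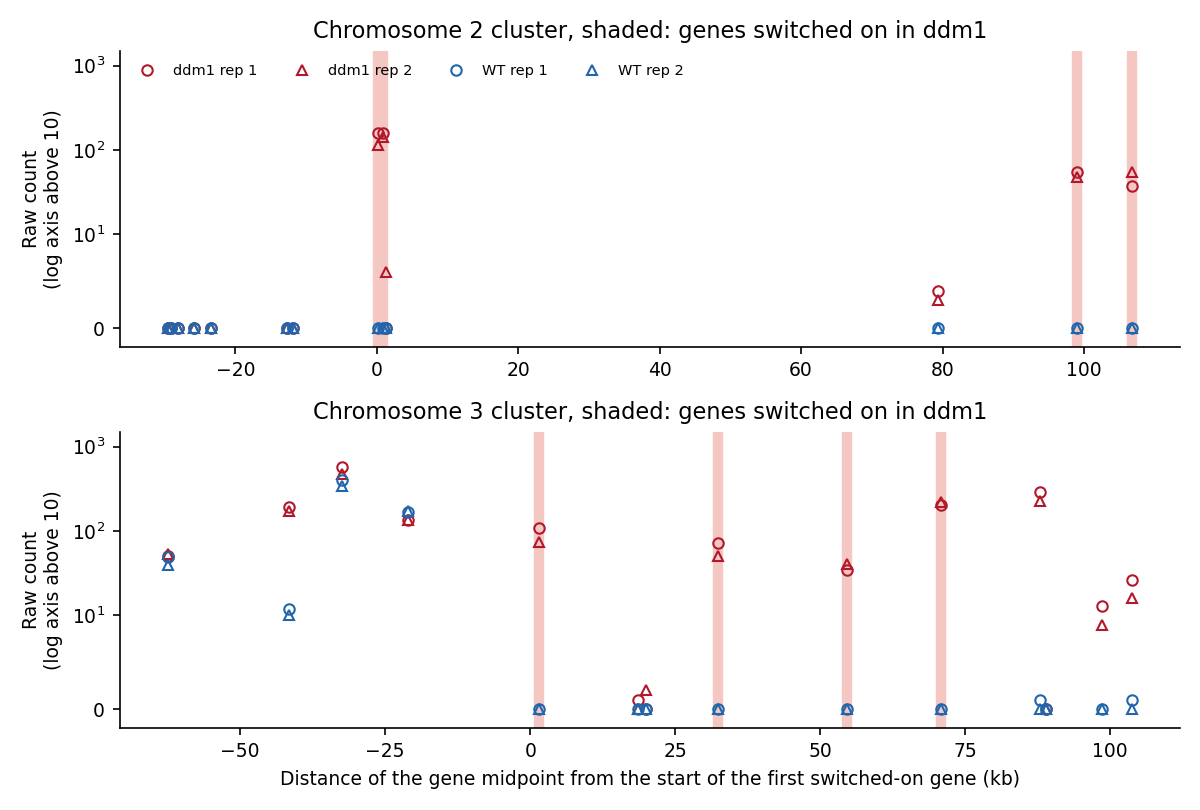
Raw count (log axis above 10) of every annotated gene in and within 60 kb of the 2 largest clusters, by distance in kb from the start of the first switched-on gene, with *ddm1* libraries in red, WT libraries in blue and switched-on genes shaded. On chromosome 2 WT is at 0 throughout, while on chromosome 3 genes read in both genotypes lie within the 60 kb before the first switched-on gene.

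A second stretch of chromosome 3, also picked after its values were seen, runs from 6356135 to 6814014. It holds 22 annotated genes, of which 6 were members, 6 were at 0 in all 4 libraries, 8 others had counts in *ddm1* only and 2 had counts in WT. The 4 Solyc00g members of chromosome 3 lie here. Solyc03g042560.3, with 345 and 409 counts in *ddm1*, against 0 and 0 in WT, was the highest. Among the clusters of 3, that on chromosome 9 from 22006751 to 22014222, also chosen after its values were seen, was compact. Solyc09g042280.1 had 80 and 70 counts in *ddm1*, Solyc09g042300.2 had 99 and 94, and Solyc09g150122.1 had 287 and 244, all on the minus strand and all at 0 in WT.

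The genes next to members did not take part in choosing the members, other than by failing the rule themselves, so their counts were compared between genotypes with edgeR's quasi-likelihood test, fitted on all 21289 genes that passed the filter on low counts. All 341 members passed that filter, as the rule makes them do. Of the 611 adjacent genes that were not members, 162 had counts in *ddm1* only (26.5%), against 9.68% of all non-members. In gene-poor regions this share was 28.1%, against 16.9% of the non-members there, and in other regions 24.3%, against 7.26%. Both genotypes had counts in 254 of the 611 (41.6%, against 66.3% of all non-members). At 0 in all 4 libraries were 182 of the 611 (29.8%, against 21.6%). Testable were 260 of the 611. Of these, 109 were called higher in *ddm1* (41.9%, against 24.1% of the 20855 non-members tested) and 54 lower (20.8%, against 23.9%).

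The excess of higher calls lay in the neighbours that WT leaves hardly expressed. Of the 109, 58 had at most 3 counts in both WT libraries. Every one of the 58 such neighbours that passed the filter was called higher, as was each of the 780 such non-members over all chromosomes, because with so few WT counts a gene passes only when it is high in *ddm1*. Among the neighbours with over 3 counts in a WT library, 51 of 202 were called higher (25.2%, against 21.2% of all such non-members) and 54 lower (26.7%, against 24.8%). With at least 10 counts required in every library, 34 of 169 neighbours were called higher (20.1%, against 21.2%) and 44 lower (26.0%, against 23.1%), so that lower calls outnumbered higher ones. By strand, 79 of the 163 tested neighbours on the same strand as a member were called higher (48.5%), and 30 of the 97 on the opposite strand only (30.9%). Neighbours with at most 3 WT counts were not left out of this split by strand. Of the 367 adjacent non-members on the same strand, 31.3% had counts in *ddm1* only, against 19.3% of the 244 others. The shares by strand are descriptions, and the difference between strands was not tested.

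**Figure D5:**
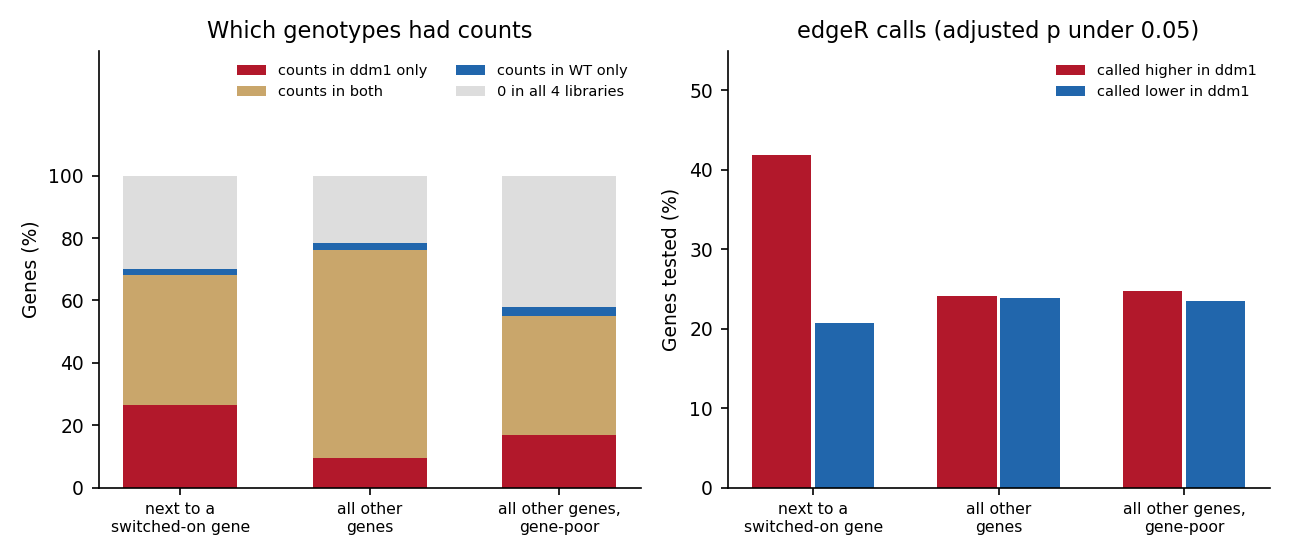
Left, share of genes (%) with counts in *ddm1* only, in both genotypes, in WT only or in no library, for the 611 genes next to a switched-on gene, all 35138 other genes and those of them in gene-poor regions. Right, share of tested genes (%) called higher or lower in *ddm1* by edgeR in the same sets. Of the tested genes next to a switched-on gene 41.9% were called higher, against 24.1% of all other genes. Tested genes with at most 3 counts in both WT libraries were all called higher, by construction of the filter. Without them the shares were 25.2% and 21.2%.

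Of the 6 neighbours with the smallest adjusted p-values, 5 were higher and 1 was lower in *ddm1*. Solyc12g009730.3 (chromosome 12, 2983934 to 2986694), 3508 bp from the member Solyc12g009720.3, had 640 and 560 counts in *ddm1*, against 6 and 5 in WT (log2 fold change 6.43 ± 0.24, SE, with an edgeR adjusted p of 6.97e-05). Solyc01g007960.3, 1348 bp from the member Solyc01g007970.2, had 355 and 388 counts in *ddm1*, against 5 and 3 in WT (log2 fold change 6.19 ± 0.26, SE, with an edgeR adjusted p of 6.97e-05). Both sit beside a gene with 0 in WT and are themselves near 0 there. Solyc07g055490.4 had 664 and 486 counts in *ddm1*, against 5 and 5 in WT, a log2 fold change of 6.51. Solyc10g076550.1 had 409 and 481 counts in *ddm1*, against 12 and 13 in WT, a log2 fold change of 4.83, and Solyc04g071780.3 had 864 and 674 counts in *ddm1*, against 44 and 37 in WT, a log2 fold change of 3.94. The neighbour lower in *ddm1*, Solyc10g045240.2, 70513 bp from the member TomatoPan002910, had 14 and 12 counts in *ddm1*, against 309 and 273 in WT (log2 fold change -4.78 ± 0.22, SE, with an edgeR adjusted p of 9.67e-05).

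The WT side of the rule cut a steep distribution. Of the genes with 30 or more counts in both *ddm1* libraries, 341 had 0 summed WT counts (1.90%), 96 had 1, 45 had 2, 35 had 3, 249 had 4 to 10 and 17147 had over 10. The share in gene-poor regions was 57.5% at 0 WT counts, 38.5% at 1, 17.8% at 2, 22.9% at 3 and 12.05% at 4 to 10 counts. The *ddm1* side cut a slope without a gap. Of the 11326 genes with 0 in both WT libraries, 9085 had 0 in the lower *ddm1* library, 1524 had 1 to 9, 257 had 10 to 19 and 119 had 20 to 29. Just inside lay Solyc01g067140.2 with 30 and 32 counts in *ddm1*, Solyc04g014578.2 with 30 and 43, and Solyc01g009740.3 with 69 and 30. Just outside lay Solyc01g058597.1 with 29 and 30 counts in *ddm1*, Solyc02g030380.3 with 29 and 31, and Solyc02g005600.1 with 33 and 29. The mirror image of the rule, 0 in both *ddm1* libraries and 30 or more counts in both WT libraries, was met by 10 genes.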

How the data were processed

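Poly(A) RNA was sequenced as single-end reads in 2 *ddm1* and 2 WT leaf libraries. According to their methods, the authors used Trimmomatic 0.38 for trimming, Hisat2 for alignment on the M82 genome and featureCounts 2.0.0 for counting, and they deposited raw counts per gene and library. Per the file header, duplicates had been removed from the alignments, counting used the strand and a minimum mapping quality of 30, and reads mapping to several places, or lying over several genes, were allowed. How many reads mapping to several places passed the quality limit was not tested. Counts of near-identical copies, zeros included, are therefore uncertain. Removing duplicates may cost the highest genes some counts, and whole gene spans were counted, introns included. Totals ran from 5462981 to 6887057 counts per library.

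Positions, lengths, strands and identifiers were taken from the same table. CPM used TMM factors. Non-member neighbours were tested by edgeR 4.0.16 in R 4.3.3, with filterByExpr at a minimum count of 10, glmQLFit and glmQLFTest on genotype alone, and Benjamini-Hochberg adjustment over 21289 genes at 0.05. The test was checked on simulated counts. Alternatives changed the count thresholds, the treatment of overlaps, the gene-poor and cluster definitions, the normalization, the filter, the tool (DESeq2 1.42.0) and the libraries used. The members, lists and definitions were chosen with earlier results of these data known. Genes named in the text are those with the highest counts, the most reads per kb, the longest and shortest, those of the 2 largest clusters, those nearest the threshold, those whose *ddm1* libraries differed most, and the neighbours with the smallest adjusted p. Others are marked as chosen after their values were seen. Replicate numbers follow the sample titles, and the *ddm1* columns of the table itself are numbered 2 and 3. Batches are not given in the sources used here.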

Additional observations from a re-analysis of the deposited data

How the results depend on the processing

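The share on the plus strand (51.9%) ran from 49.6% to 55.9% under the 14 alternatives run, all within its 95% interval. This interval treats the members as independent, and the alternatives share many members, so staying inside it tests little. Against 341 members, there were 568 with at most 3 WT counts allowed in each library, and 717, 226 and 102 with 10, 50 and 100 counts required in *ddm1*, which by construction loosens or tightens the rule. Without each library in turn the number ranged from 383 to 479. The median CPM (11.1) was 4.84, 8.25, 15.2 and 25.2 with 10, 20, 50 and 100 counts required. With each library in turn left out of the rule it ran from 8.86 to 11.5. There the CPM was still the mean over both *ddm1* libraries, so only the choice of genes changed. The median length (2308 bp) was 1792, 2722 and 3199 bp with 10, 50 and 100 counts. The gene-poor share (57.5%) was 51.2% and 45.2% with at most 1 and at most 3 WT counts, 27.3% with the lowest 10% as gene-poor, and from 47.8% to 56.6% without each library, lowest without WT replicate 1. The share of version 1 (60.4%) was 52.5% with at most 3 WT counts and from 54.1% to 61.3% without each library. The share next to another member (17.9%) was 28.7%, 22.4%, 11.1% and 7.84% with 10, 20, 50 and 100 counts and from 17.95% to 23.3% without each library. Clusters of 3 or more members numbered 11, and 7 and 22 with gaps of 50 kb and 500 kb.

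Called higher and lower in *ddm1* were 109 and 54 of 260 neighbours with edgeR (41.9% higher, against 24.1% of all non-members), and 104 and 40 of 260 with DESeq2 (40% against 19.6%). With RLE factors there were 111 and 53 of 260 (42.7% against 25.1%), and with no filter on low counts 143 and 53 of 429 (33.3% against 19.9%). How many genes these settings share was not counted. Like the main setting, they keep neighbours near 0 in WT, where the excess of higher calls lay, so they are no separate support for it. The same holds for the settings below, other than 10 or more counts per library. Without each library in turn there were 104 to 115 and 36 to 45, where the lone library of a genotype is assumed to vary like the other genotype. Requiring 10 or more counts per library removes genes near 0 in WT by construction, and there were 34 and 44 of 169 (20.1% higher, against 21.2%), and lower calls outnumbered higher ones. Within 50 kb, where more genes are counted, there were 288 and 168 of 818 (35.2% higher, against 24.1%). Libraries that share a replicate number did not deviate together from their genotype means (correlation 0.0036), so the numbers, taken from the sample titles, give no pairing, and with the replicate block 107 and 46 were called.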

Other observations

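The members were not evenly divided between the *ddm1* libraries. Normalized CPM was higher in replicate 1 than in replicate 2 for 239 of the 341 members (70.1%), with a median log2 ratio of 0.19, against 8785 of the 17572 other genes with 30 or more counts in both *ddm1* libraries. The ratio ran the same way in the 196 gene-poor members (73.0% higher in replicate 1) and in the other 145 (66.2%). It was less marked in the 425 genes with 30 or more *ddm1* counts and 1 to 10 summed WT counts (60.0%) and in the 4281 other such genes called higher in *ddm1* (55.03%), and it ran the other way in the 3866 called lower (34.4%). With 1 library on each side no test can be made. Across the 341 genes, which are not independent, the correlation of log2 CPM between the *ddm1* libraries was 0.894, over a range that the minimum of 30 counts cuts at its lower end.

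For 19 members the *ddm1* libraries differed by more than 2-fold, 16 of them with the higher value in replicate 1. Solyc09g065090.2 had 150 and 57 counts, and Solyc01g015297.1 had 32 and 104, the largest ratio the other way.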
